A study of Mus musculus with 3 samples.

Results

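Proteasome subunits and assembly factors were followed in mouse embryonic fibroblasts (MEF) exposed to n-butylidenephthalide (BP), a compound from Angelica sinensis. Members were all array probes named Psma, Psmb, Psmc, Psmd, Psme or Psmg plus a number, except the inducible Psmb8, Psmb9 and Psmb10. This gave 56 probes of 44 genes, out of 55681 probes of 35287 genes on the array. MEF are primary cells grown from minced C57BL/6 embryos after the heads, legs and internal organs were taken away. The 3 conditions were MEF without BP (control), MEF with 10 µg/ml BP (BP10) and MEF with 40 µg/ml BP (BP40). The labels record no treatment for the control, whereas the paper describes the control of the arrays as treated with DMSO, the solvent of BP. The length of exposure for the arrays is not given in the sources used here. Agilent mouse arrays took up the Cy3-labeled RNA, 1 array per condition. With 1 array per condition no test was possible, so each ratio below compares 2 arrays, and no p-value is given.

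The proteasome is the protease that removes proteins tagged with ubiquitin. Its 20S core is a barrel of alpha and beta rings, and the proteolytic sites face the inside of the beta rings. A 19S cap recognizes ubiquitin through its lid and base and threads substrates into the barrel with a ring of ATPases, while the Psme activators open the barrel without ubiquitin. Subunit genes are expressed in nearly every cell, since growing fibroblasts degrade a large part of their protein by this route.

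Values are log2 signals minus the 75th percentile of the array, so that 0 is the signal of the spot at that percentile, and a ratio is the difference of these values. A gene was called at 1.5-fold (0.585 on the log2 scale) where one or both of the arrays compared had its probe well above background. The number of arrays limits the precision, and only the spread within an array could be measured. Between single spots of 170 bright probes printed 10 times, the SD of a ratio would be 0.10 from control to BP10, 0.11 from control to BP40 and 0.08 from BP10 to BP40. Between 2 different probes of 1 proteasome gene, the SD of the ratio had a median of 0.18, 0.17 and 0.13 in the same order over 11 genes. BP10 and BP40 shared a scan session and the control had its own, so any ratio to the control mixes BP with the session and the parts cannot be told apart. The scanner marked 81.7% of spots as well above background in the control, 68.3% at BP10 and 69.1% at BP40. All 13 fibroblast markers were well above background on all 3 arrays, with a summed linear level of 1436 times the 75th percentile in the control, 1007 at BP10 and 1118 at BP40. They had a median ratio of -0.60 at either dose against the control, and 8 of 13 at BP10 and 7 at BP40 were called lower. Of all genes that could be called, 32.5% and 29.2% were lower, and the medians of all genes were -0.24 and -0.12. Of genes well above background on all 3 arrays and above 0 in mean value, 7.21% and 4.61% were lower. The 9 macrophage and leukocyte markers on the array summed to 30.6 to 37.4, the 7 skeletal muscle markers to 15.8 to 17.4, the 5 endothelial markers to 6.49 to 8.42 and the 6 epithelial markers to 1.97 to 2.90. The endothelial Cdh5 and Tie1 and the epithelial Epcam and Cdh1 were not well above background on any array. The part of these other cells, or of the lower fibroblast markers, in the proteasome values was not tested, and fewer cells of a type and less RNA per cell cannot be told apart in bulk RNA.

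The probes that decide how Psmb5, Psme2 and Psme4 are read are shown first, because the probes of 1 gene did not give the same ratio. They are written 5′ to 3′, with mm9 positions, and capitals mark the polyadenylation signal AATAAA, found near the 3′ end of many mRNAs. For the first probe of each gene a stretch of 30 bases is given, and the other probes are given whole. The first Psmb5 probe lies at chr14:55232957-55233016 and the second at chr14:55233161-55233220, both on the minus strand.
Psmb5 first probe, bases 27 to 56: ctccatggctatAATAAAtaatagtacctc
Psmb5 second probe: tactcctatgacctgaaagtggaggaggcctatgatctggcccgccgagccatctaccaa
The first Psme2 probe lies at chr14:56206296-56206355 and the second spans chr14:56208888-56209346. The third carries the name Psme2 but is placed on another chromosome, at chr11:48759630-48759689. The files list all 3 probes for the transcript to which the last of them belongs. All 3 are on the minus strand.
Psme2 first probe, bases 31 to 60: ctgagctaaggattagaaggaaAATAAAtg
Psme2 second probe: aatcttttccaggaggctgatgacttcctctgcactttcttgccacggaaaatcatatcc
Psme2 probe of the other place: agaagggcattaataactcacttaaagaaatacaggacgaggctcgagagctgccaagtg
The Psme4 probes lie far apart on the plus strand, at chr11:30756055-30756114 for the first and chr11:30710953-30711012 for the second.
Psme4 first probe, bases 1 to 30: aggaagatctttttctacagcagtcaaaga
Psme4 second probe: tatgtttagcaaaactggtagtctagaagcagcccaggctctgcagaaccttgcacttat

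Nearly the whole complex was expressed, and no subunit moved far. Of the 44 genes, 42 were well above background on all 3 arrays, and each of the 42 lay above the 75th percentile of every array. The exceptions were Psma8, a testis-specific alpha subunit, and Psmb11, the beta subunit of the thymus cortex, which were not well above background on any array. The median ratio of the 44 genes was -0.12 for BP10 against control, 0.14 for BP40 against control and 0.24 for BP40 against BP10, or 1.09-fold, 1.1-fold and 1.18-fold in size. The first of these turned positive under quantile normalization (0.03), after the median ratio at the same brightness was subtracted (0.06, called brightness correction below) and under median scaling (0.21), whereas the other 2 were positive under every alternative except scaling on spike-in RNA, which turned them to -0.65 and -0.55. The 7 spike-in probes, which detect RNA added to the samples for labeling, had a median ratio of -0.00 at BP10 against control and of 0.79 at BP40 against either other array. On their scale the medians of all genes were -0.92 for BP40 against control and -0.73 for BP40 against BP10, and every role median of the proteasome at BP40 was negative against both arrays, from -0.83 to -0.44. Directions at BP40 below are thus relative to the 75th percentile of the array, and not to the spike-ins. Over all 35287 genes the medians were -0.24, -0.12 and 0.07. Over the 10860 genes well above background on all 3 arrays and above 0 in mean value, called bright genes here, the medians were -0.11, 0.05 and 0.16. The proteasome thus lay close to other bright genes at BP10 and above their median for BP40 against either array. The bright genes were not matched to it in brightness, since the 42 genes had median levels of 4.54, 4.53 and 4.52 on control, BP10 and BP40. After brightness correction the proteasome median was 0.09 for BP40 against control and 0.04 for BP40 against BP10. Under quantile normalization these were 0.10 and 0.07.

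**Figure D1:**
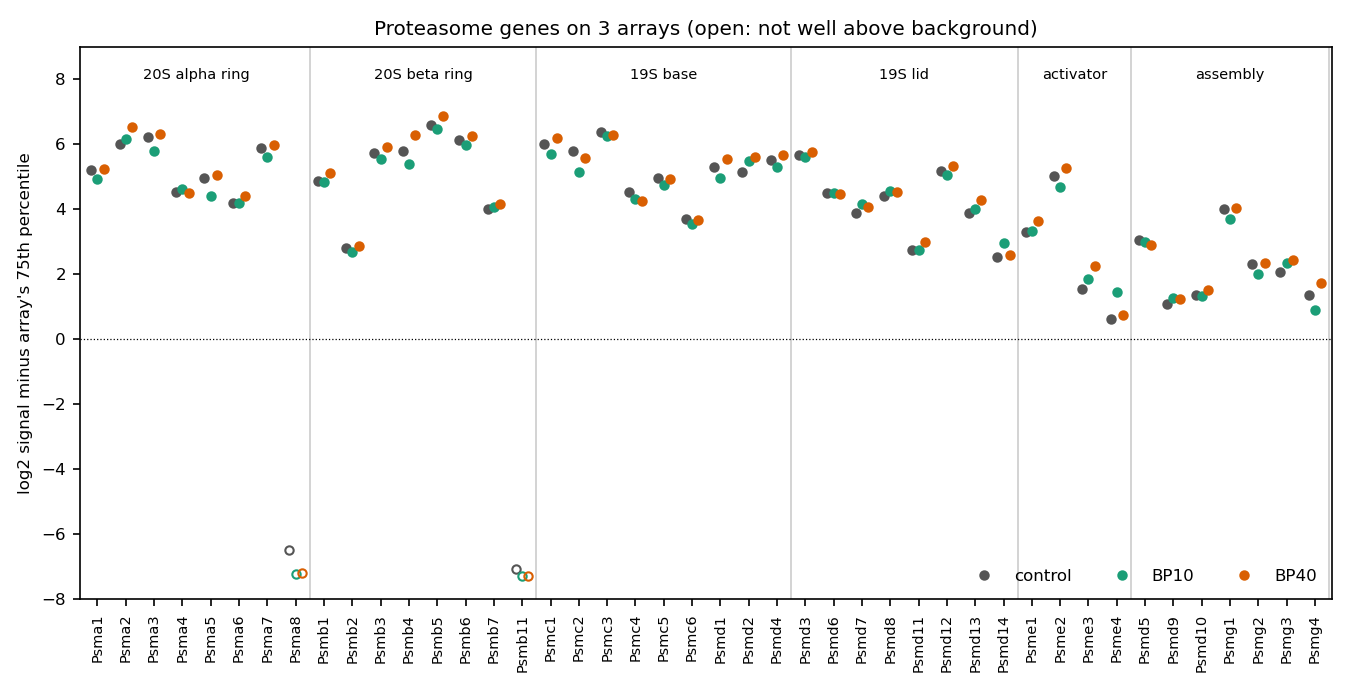
Normalized log2 signal (y axis, array's 75th percentile at 0) of each of the 44 genes (x axis, by role) on the control (grey), BP10 (green) and BP40 (orange) arrays, 1 point per array. The 42 genes with filled points lie above 0 on all 3 arrays, and the open points of Psma8 and Psmb11 lie near -7.

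At 1.5-fold, 1 of 42 measurable genes was higher at BP10 than in the control and 1 was lower, where 7.65% and 32.5% of all 30407 measurable genes, or 3.43% and 7.21% of bright genes, were called. At BP40, 1 gene was higher than in the control and 0 were lower, against 7.84% and 29.2% of all measurable genes and 5.07% and 4.61% of bright genes. From BP10 to BP40, 5 genes (11.9%) were higher and 1 was lower, against 12.0% and 8.07% of all measurable genes and 7.95% and 2.88% of bright genes. At 2-fold 0 of the 42 were called in any comparison, while 22.7%, 19.9% and 7.20% of all measurable genes were called in the same order. The share of proteasome genes past 1.5-fold was at or below the background of all measurable genes in each comparison. Against bright genes, the class to which all 42 belong, it was lower except from BP10 to BP40 for higher genes, 11.9% against 7.95%. The lower shares rest on 0 or 1 gene each. The 6 calls from BP10 to BP40 became 3 under quantile normalization and 3 under brightness correction. No excess or lack of calls was read from so few genes. The signs were less even than the sizes. A ratio above 0 was found for 14 of 42 genes (33.3%) at BP10 against control, where 37.0% of bright genes had one. At BP40 against control 34 of 42 (81.0%) were above 0, where 56.8% of bright genes were. From BP10 to BP40 33 of 42 (78.6%) were above 0, where 68.9% of bright genes were.

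**Figure D2:**
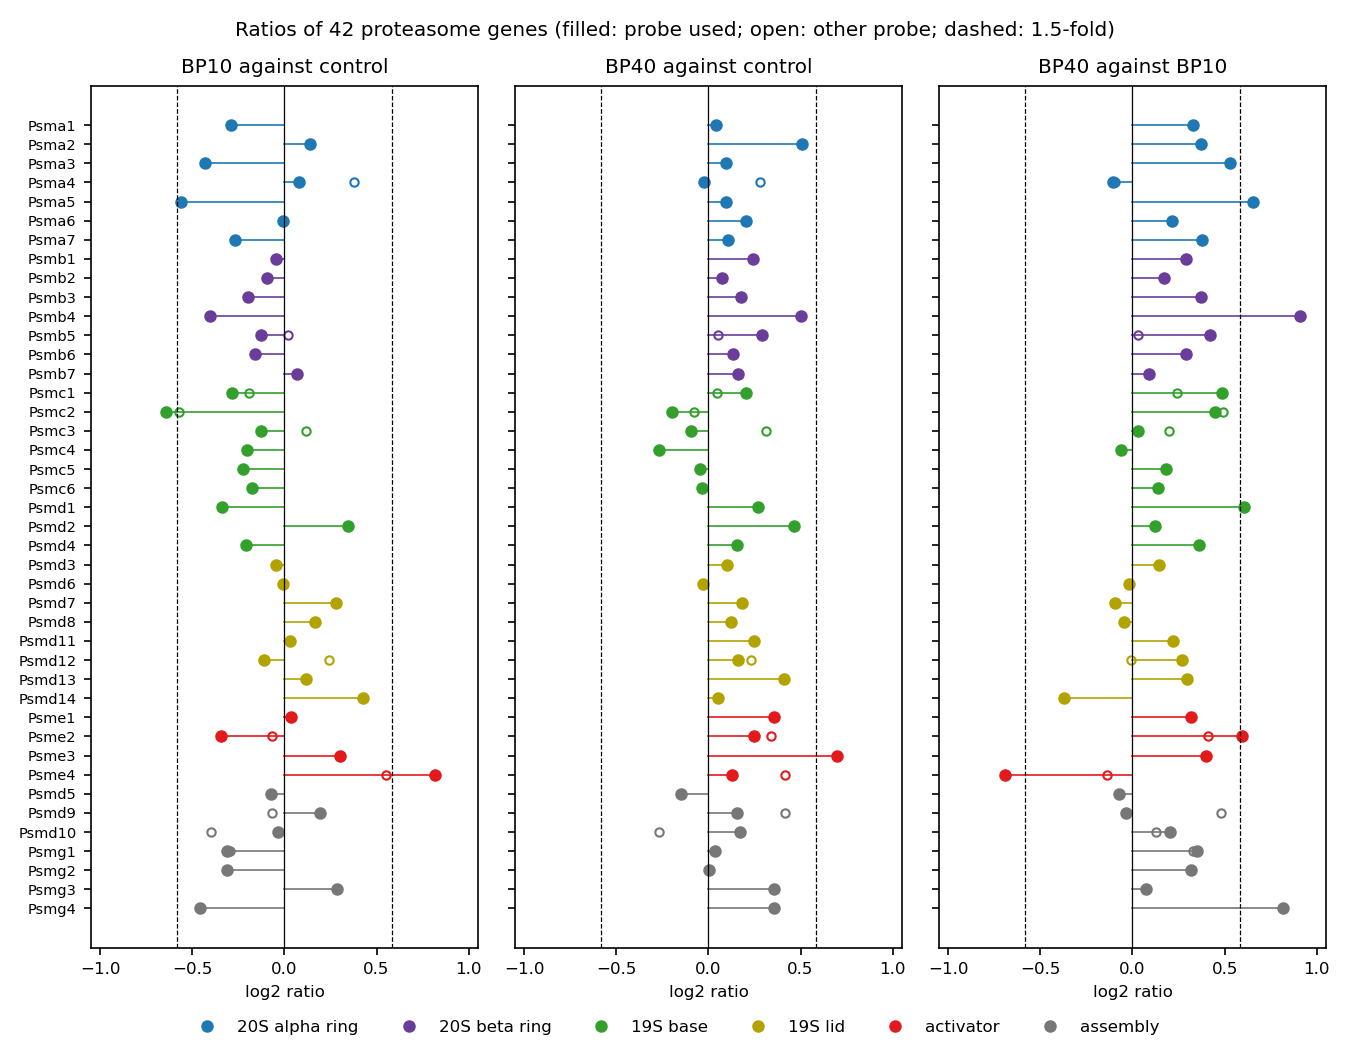
Log2 ratios (x axis) of the 42 measurable genes (y axis, colored by role) in the 3 comparisons. Filled points are the probe used, open points another probe of the gene well above background on all arrays, and dashed lines 1.5-fold; few filled points pass the lines, and most lie right of 0 in the panels of BP40, which holds for the 75th percentile scale and not for the spike-in scale.

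In the alpha ring, whose subunits form the gate of the barrel, the median ratio of 8 genes was -0.28 for BP10 against control, 0.10 for BP40 against control and 0.35 for BP40 against BP10, and the first turned positive under median scaling (0.05). The third shrank to 0.10 under quantile normalization and to 0.06 under brightness correction. Psma5 read 4.96 on control, 4.40 on BP10 and 5.06 on BP40. BP10 was the low array, and BP40 exceeded it by 0.66, past 1.5-fold, while the difference from the control at BP10, -0.56, was short of it. The Psma5 call was lost under quantile normalization (0.48), scaling on always-detected probes (0.57) and brightness correction (0.48), and on the spike-in scale the ratio was -0.14. Psma3 had the same shape at a smaller size, with 6.23, 5.80 and 6.33 on control, BP10 and BP40. Psma2 differed from these, since it read 6.02, 6.16 and 6.53, and was the highest alpha gene against the control at both doses (0.14 and 0.51). Psma4 was the lowest from BP10 to BP40, with 4.54, 4.62 and 4.51. A second Psma4 probe read 3.75, 4.12 and 4.03, so the probes gave -0.02 and 0.28 for BP40 against control, with opposite signs.

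In the beta ring the median of 8 genes was -0.14, 0.17 and 0.29 in the same order of comparisons, the first again positive under quantile normalization (0.06), brightness correction (0.06) and median scaling (0.19). The third shrank to 0.08 under quantile normalization, to 0.0079 under brightness correction and to 0.13 without AATAAA probes. The catalytic subunits come first. Psmb5, which carries the chymotrypsin-like site, read 6.59 on control, 6.46 on BP10 and 6.88 on BP40 with its first probe. Its ratio from BP10 to BP40 was 0.42. The second Psmb5 probe, whose bases lie inside the gene before the end of the mRNA, read 4.69, 4.71 and 4.74, with ratios of 0.02, 0.05 and 0.03, so the higher BP40 value of the probe with AATAAA was not seen by the other. Psmb6, the caspase-like subunit, read 6.14, 5.98 and 6.27. Psmb7, the trypsin-like subunit, read 4.0, 4.07 and 4.16, the highest beta gene at BP10 against control (0.07) and the lowest measurable one from BP10 to BP40 (0.09). None of the 3 catalytic genes was called in any comparison.

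Psmb4, a beta subunit without a proteolytic site, had the largest ratio of the 42 genes from BP10 to BP40. It read 5.79 on control, 5.38 on BP10 and 6.29 on BP40, the lowest on BP10 and the highest on BP40. BP40 exceeded BP10 by 0.91 (1.87-fold), and this stayed past 1.5-fold, between 0.62 and 0.93, under every alternative except the spike-in scale, where it was 0.11. Psmb4 was also the lowest beta gene at BP10 against control (-0.41) and the highest at BP40 against control (0.50). Psmb2 was the lowest measurable beta gene at BP40 against control (0.08), with 2.80, 2.70 and 2.87.

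The excluded inducible subunits, which take the place of the catalytic ones in the immunoproteasome, had wider ratios. Psmb8 read 0.91, 0.17 and 1.24 and Psmb9 -1.49, -2.08 and -0.87, each lowest on BP10, with BP40 above BP10 by 1.06 and 1.21. Psmb10 read 3.55, 2.94 and 2.86 and was below the control at both doses, with ratios of -0.61 and -0.69.

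In the 19S base the median of 9 genes was -0.21 for BP10 against control, -0.04 for BP40 against control and 0.18 for BP40 against BP10. Each changed sign under some alternative, the first under median scaling (0.12), the second under median scaling (0.32), with all probes averaged (0.11), with every probe counted (0.01) and without AATAAA probes (0.05), and the third under brightness correction (-0.04) and on the spike-in scale (-0.61). Psmc2, an ATPase of the ring that unfolds substrates, was the only gene called lower at BP10. It read 5.79 on control, 5.14 on BP10 and 5.59 on BP40, lowest on BP10. The ratio to control was -0.64 at BP10 and -0.20 at BP40, and a second Psmc2 probe that overlaps the first gave -0.57 and -0.08. The call was lost under quantile normalization (-0.47), brightness correction (-0.44), median scaling (-0.31) and normexp, another background correction (-0.53).

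Of the 6 ATPases, 5 (Psmc2, Psmc3, Psmc4, Psmc5 and Psmc6) were below the control on both BP arrays. Such a pattern was found for 7 of 42 proteasome genes (16.7%), where 34.4% of bright genes had it, and the other 2 were the chaperone Psmd5 and the lid subunit Psmd6. At BP40 the ratios of Psmc3, Psmc5 and Psmc6 to the control were -0.10, -0.05 and -0.04, within the SD of 0.17 between probes. The signs also depended on the scaling. Median scaling raises each ratio of BP40 to control by 0.36, more than any of the 5 ATPases lay below 0. Psmc4 was the lowest base gene at BP40 against control (-0.27) and from BP10 to BP40 (-0.06), with 4.54, 4.33 and 4.27. For Psmc3 the probe used read 6.39, 6.26 and 6.29, all within 0.13 of each other. Its second probe gave 0.12 and 0.31 against the control at BP10 and BP40 where the first gave -0.13 and -0.10, so the direction of Psmc3 depended on the probe. Psmc1 was the ATPase outside this pattern, with 6.00, 5.72 and 6.21.

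The large scaffold subunits of the base did not share one direction. Psmd1 read 5.29, 4.95 and 5.56, lowest on BP10 and highest on BP40. It was 0.60 higher at BP40 than at BP10, a call lost under quantile normalization (0.42), scaling on always-detected probes (0.52), brightness correction (0.32) and normexp (0.57), with -0.19 on the spike-in scale. Psmd2, to which ubiquitin-like domains of shuttle factors dock, read 5.14, 5.48 and 5.60 and was the highest base gene against the control at both doses (0.34 and 0.46). Psmd4, a ubiquitin receptor, read 5.51, 5.30 and 5.66.

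In the lid the median of 8 genes was 0.07, 0.14 and 0.06, and the first was positive under every alternative tried and the second under all but the spike-in scale (-0.65), while the third turned negative there (-0.73) and under quantile normalization (-0.13), scaling on always-detected probes (-0.02), brightness correction (-0.17) and with every probe counted (-0.01). No lid gene was called. Psmd14, the deubiquitinase that cuts ubiquitin chains off the substrate, read 2.54 on control, 2.96 on BP10 and 2.59 on BP40, so that BP10 was the high array. It was the highest lid gene at BP10 against control (0.42) and the lowest from BP10 to BP40 (-0.37). Psmd13 read 3.89, 4.01 and 4.30, the highest lid gene at BP40 against control (0.41) and from BP10 to BP40 (0.30). Psmd6 was flat, with 4.50, 4.49 and 4.47. Psmd12 was the lowest at BP10 against control (-0.11), but its second probe gave 0.24 there, on the other side of 0.

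The activators, which bind the ends of the barrel in place of the cap, had a median over 4 genes of 0.17, 0.30 and 0.36, and the third turned negative with all probes of a gene averaged (-0.05) and on the spike-in scale (-0.44). They held 4 of the 9 calls made over the 3 comparisons, and 2 of the 4 were of Psme4, the dimmest of the 42 measurable genes on control and BP40. Of bright genes 3.43% were called higher at BP10 and 5.07% at BP40 against control. From BP10 to BP40 7.95% were higher and 2.88% lower. With 4 genes no excess of calls was read from this. Psme4, a large activator of the nucleus that is known for the degradation of acetylated histones, read 0.63 on control, 1.44 on BP10 and 0.75 on BP40. BP10 stood above both other arrays. It was 0.82 (1.76-fold) above the control, between 0.68 and 1.15 under the alternatives tried, and the ratio of BP40 to BP10 was -0.69. The second Psme4 probe read -1.59, -1.03 and -1.17 and gave 0.55 for BP10 against control, but -0.14 for BP40 against BP10. With both probes averaged, the ratio of BP40 to BP10 was -0.42 and no longer called.

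Psme3, the activator subunit that forms a ring in the nucleus, was the only gene called at BP40 against control. It read 1.55 on control, 1.85 on BP10 and 2.25 on BP40, in the order of dose. The ratio was 0.30 at BP10 and 0.70 (1.62-fold) at BP40, and BP40 was 0.40 above BP10. The call at BP40 was lost under normexp, at 0.51, and on the spike-in scale, at -0.09.

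Psme1 and Psme2 together form the activator that interferon induces. Psme1 was the proteasome gene with the best measured level, since its probe was printed 10 times on each array. It read 3.30 ± 0.12 on control, 3.34 ± 0.08 on BP10 and 3.66 ± 0.05 on BP40 (SD between 10 spots of 1 array, which are not replicates of the culture). The spots ran from 3.15 to 3.55 on control, 3.20 to 3.44 on BP10 and 3.55 to 3.72 on BP40. Control and BP10 overlapped, whereas on this scale every BP40 spot lay above every spot of the other arrays. The margin was narrow, with 3.551 for the highest control spot and 3.554 for the lowest BP40 spot. It depends on the scaling, since the spike-in scale shifts BP40 against control by -0.79. How many other probes printed 10 times separate in this way was not counted. The Psme1 ratio was 0.04 at BP10 and 0.35 at BP40 against control, and was not called at 1.5-fold. Psme2 read 5.03, 4.69 and 5.28 with its first probe and 3.10, 3.03 and 3.44 with its second, highest on BP40 with both. BP40 was 0.59 above BP10 by the first probe, which was called, and 0.41 by the second, which was not. The third probe with this name read -3.85 on control and -3.34 on BP10 and was not well above background on BP40, which placed BP40 at least 2.34-fold below the control and at least 3.35-fold below BP10. Since it is placed elsewhere in the genome, and both other probes are listed for its transcript too, the share of a related copy in the Psme2 values, the called one included, is uncertain. The mean of all 3 probes reversed the sign of BP40 against BP10 to -0.50, and the spike-in scale turned the first probe to -0.20.

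The assembly factors, which build the rings and are not part of the finished protease, had a median over 7 genes of -0.07, 0.16 and 0.20, the first turning positive under median scaling (0.26), brightness correction (0.01) and normexp (0.0046). Psmg1 and Psmg2 pair up to build the alpha ring. Psmg1 read 4.01, 3.70 and 4.04 and Psmg2 2.33, 2.02 and 2.34, so both were low on BP10 alone, with a ratio to control of -0.31. The second Psmg1 probe, which lies beside the first, gave -0.30, 0.03 and 0.33, close to the -0.31, 0.04 and 0.35 of the first. Psmg3 and Psmg4 form the partner pair in the same step and did not move together. Psmg3 read 2.07, 2.36 and 2.43, above the control on both BP arrays. Psmg4 read 1.37 on control, 0.91 on BP10 and 1.73 on BP40. It was the lowest of the assembly genes on BP10 (-0.46) and the highest on BP40 (0.36) against the control. The ratio of BP40 to BP10 was 0.82 (1.76-fold), between 0.72 and 0.84 under the alternatives tried except the spike-in scale, where it was 0.02.

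The chaperones of the ATPase ring, Psmd5, Psmd9 and Psmd10, were not called in any comparison. Psmd5 read 3.06, 2.99 and 2.91, and was the lowest assembly gene at BP40 against control (-0.15) and from BP10 to BP40 (-0.08). Psmd9 read 1.08, 1.27 and 1.24, and its second probe 0.51, 0.45 and 0.93, so that the probes differed in sign at BP10 against control and from BP10 to BP40. Psmd10, also known as gankyrin, read 1.36, 1.33 and 1.53, whereas its second probe, which holds AATAAA, gave -0.40 and -0.27 against the control.

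**Figure D3:**
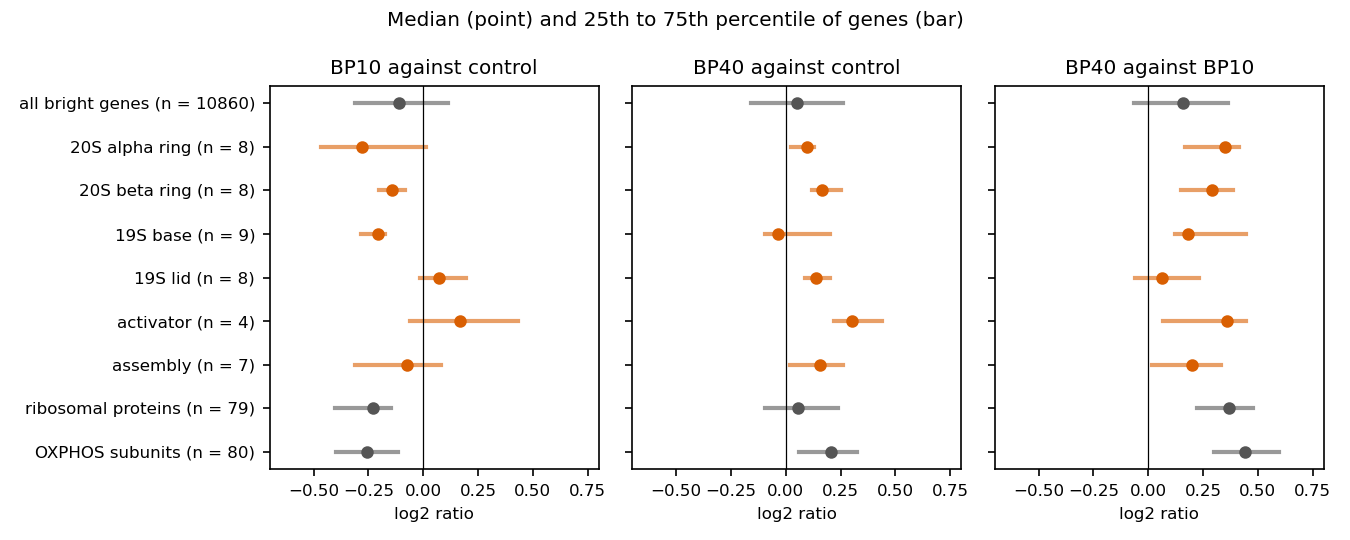
Median log2 ratio (point, x axis) and 25th to 75th percentile of the genes (bar) for each role of the proteasome (orange, dim genes included) beside all bright genes, cytosolic ribosomal proteins and oxidative phosphorylation (OXPHOS) subunits (grey). From BP10 to BP40 the alpha ring median of 0.35 and the beta ring median of 0.29 lie between the 0.16 of bright genes and the 0.44 of OXPHOS subunits, and the lid median lies at 0.06, all on the 75th percentile scale; on the spike-in scale the role medians are negative.

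Across roles, the 20S core and the 19S cap had like medians against the control, -0.14 and -0.11 at BP10 and 0.15 and 0.12 at BP40, and differed most from BP10 to BP40. The 14 measurable core genes had a median of 0.35 there, with 13 of 14 above 0, and the 17 cap genes 0.14, with 12 of 17 above 0. Other large complexes had values of the same order, since the median was 0.37 over 79 ribosomal protein genes and 0.44 over 80 genes of oxidative phosphorylation subunits. The role medians from BP10 to BP40 shrank with the processing. Under quantile normalization they were 0.10 for the alpha ring, 0.08 for the beta ring, 0.01 for the base and -0.13 for the lid. Under brightness correction they were 0.06, 0.0079, -0.04 and -0.17 in the same order. Against the control at BP10 the ribosomal and oxidative lists had medians of -0.23 and -0.26, and at BP40 0.06 and 0.21. By sign, 21 of 42 proteasome genes (50%) were below the control on BP10 and above it on BP40, where 28.6% of bright genes were. A further 13 (31%) were above the control on both arrays, where 28.2% of bright genes were, and 1 gene, Psma4, was above on BP10 and below on BP40.

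The ratios also varied with where on the mRNA a probe lies. Over all probes with the brightness of bright genes, the 2060 that hold AATAAA had medians of -0.22 (BP10 against control) and 0.28 (BP40 against BP10), and the 11042 without it -0.07 and 0.12. The 10 measurable proteasome probes with AATAAA had medians of -0.25 and 0.40, and the 42 bright ones without it -0.04 and 0.21. For BP40 against control the medians were nearly equal, 0.14 with and 0.16 without. The probe used held AATAAA for 4 of 9 base genes, 3 of 8 beta genes, 1 of 8 alpha genes (Psma8), 1 of 4 activators, and no lid or assembly gene. Leaving out these probes gave medians of -0.04, 0.13 and 0.20 over 39 genes. The part of probe position in the single ratios was not tested beyond this.

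**Figure D4:**
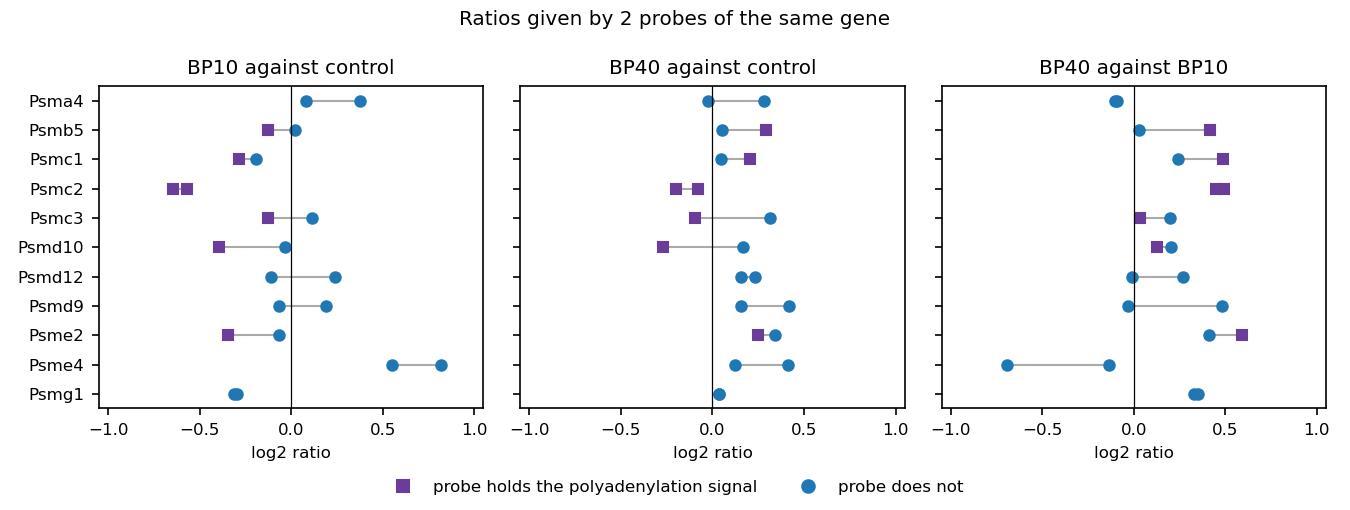
Log2 ratios (x axis) given by 2 probes of each of 11 proteasome genes (y axis), joined by a line. Purple squares are probes that hold the polyadenylation signal and blue circles probes that do not; in 7 of 11 genes both probes lie on one side of 0 for BP10 against control, in 8 for BP40 against control and in 9 for BP40 against BP10.

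Promoters were looked at because subunit genes are known to be switched on together, in mammals through the factor Nrf1 (Nfe2l1) at antioxidant response elements when the proteasome is blocked. Of the 44 genes, 36 had a promoter in the RefSeq table (GRCm38.p6, 250 bases before to 50 after the start). The element TGACNNNGC was found on either strand in 6 of 36 (16.7%), where 14.0% of 27025 genes had it, and its looser form TGANNNNGC, which contains it, in 21 (58.3%), where 45.0% had it. A CCAAT box was found in 13 (36.1%, all genes 41.1%) and the cAMP-type element GTGACGTCA in 0 (all genes 1.49%). The ETS motif CCGGAAG was found in 14 of 36 (38.9%), where 9.93% of all genes had it. An interferon response motif, a TTTC, any 2 bases and another TTTC, was found in 5 (13.9%, all genes 3.99%), Psme1 among them. The 6 genes with TGACNNNGC had medians of -0.12, 0.15 and 0.20 in the 3 comparisons, and the 30 without it -0.20, 0.16 and 0.32. With CCGGAAG the medians were -0.01, 0.18 and 0.24 in the same order, and without it -0.20, 0.13 and 0.32. A match is a run of letters and not a measured site.

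The windows around the element in the catalytic genes Psmb5 and Psmb6, and around the ETS motif in Psmg1 and Psmd11, are given as examples, with the motif in capitals. Psmb5 is read on the minus strand of chr14:54618014-54618062, Psmb6 on the plus strand of chr11:70525328-70525356, Psmg1 on the minus strand of chr16:95991003-95991049 and Psmd11, where the motif is on the opposite strand, on the plus strand of chr11:80428584-80428614.
Psmb5 promoter: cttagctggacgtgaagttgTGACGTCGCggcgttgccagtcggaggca
Psmb6 promoter: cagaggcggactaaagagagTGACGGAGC
Psmg1 promoter: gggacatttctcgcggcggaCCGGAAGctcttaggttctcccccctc
Psmd11 promoter: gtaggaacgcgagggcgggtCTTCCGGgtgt
The first bases of these motifs lie at -47 in Psmb5, -9 in Psmb6, -69 in Psmg1 and -11 in Psmd11, counted from the start site. The genes behind them had ratios of 0.42, 0.29, 0.35 and 0.22 from BP10 to BP40, where 68.9% of bright genes were above 0. The second Psmb5 probe gave 0.03 there.

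Of 29 listed partners of the proteasome, 25 were on the array and all 25 were well above background on all arrays. They were set apart only because their names fall outside the rule for members, and some, such as Adrm1 and Shfm1, may be part of the complex. Their medians were -0.17, -0.01 and 0.16, each below that of the 44 proteasome genes. At 1.5-fold 3 partners were called. Psmf1, a regulator that binds the 20S core, read -0.10, 0.67 and 0.65, higher than the control by 0.76 at BP10 and 0.74 at BP40. Ubqln4, a shuttle for ubiquitin-tagged proteins, read -0.18, 0.47 and -0.08, 0.65 above the control at BP10. Ubb, a polyubiquitin gene, read 7.46, 7.82 and 7.20, with a ratio of -0.61 for BP40 against BP10. Pomp, the maturation factor of the beta ring, was 0.57 higher at BP40 than at BP10, just short of the call.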

How the data were processed

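RNA of 3 MEF cultures (control, BP10 and BP40) was hybridized to Agilent mouse arrays with mm9 annotation, 1 array each on 1 slide, in a single colour. The authors deposited the scanner output of Feature Extraction 10.5.1.1 (named in the file headers), whose processed intensity is background-subtracted but has no scaling from one array to another. In the series value table the intensity of 100% of spots was the same, at a relative tolerance of 0.0001. No spot was saturated, and the median intensity was 224, 145 and 123 on the control, BP10 and BP40 arrays. For an array the number of arrays, here 3, limits the precision, and there is no read depth.

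From these values log2 of the intensity minus the 75th percentile over non-control spots was taken, and the spots of a probe were averaged. A probe was well above background where at least 0.5 of its spots were, by the scanner's flag. A gene was represented by the probe that passed on most arrays and, among equals, was brightest; gene names are those of the BP40 file, and the members were the same in all 3 files. Bounds for a dim probe take the lowest signal well above background on that array. A median counted as moved when it differed by more than the SD between probes of 1 gene. The rule for calls was tested on simulated data, with 200 of 35287 genes changed and a noise SD of 0.1 or 0.2 on each array. The changed genes all lay above 0 in mean value and were changed 2-fold, and every probe was set as well above background. For BP40 against control the rule recovered 200 and 191 of them, with 1 and 1353 false calls, and for BP40 against BP10 199 and 183, with 1 and 1387. The number of false calls at 1.5-fold thus depended on the noise. Recovery of changes smaller than 2-fold, such as those called here, was not tested. Python 3.11.15, numpy 2.4.6, pandas 2.3.3, scipy 1.17.1, R 4.3.3 and limma 3.58.1 were used, and sequences came from the scanner files and the RefSeq table. Named genes were the catalytic, activator and assembly genes, the highest and lowest gene of each role, genes called or dim, and genes whose probes differed in sign. The members, lists and alternatives were chosen with earlier results of these data known.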

Additional observations from a re-analysis of the deposited data

Results flagged for a closer look

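In 6 of 42 genes BP10 lay below the control and BP40 above it, each by more than the SD between probes of 1 gene, so that the doses differed in direction on the scale used here. With median scaling and with spike-in scaling 0 of the 6 met this, with brightness correction 2 (Psmb4 and Psmg4) and with quantile normalization 3 (these and Psmd1). The difference between the doses was not tested, since each rests on 1 array. The share of bright genes past the same limits was not counted. By sign alone the pattern was found for 50% of the 42 genes and 28.6% of bright genes. Psmb4 and Psmg4 each rest on 1 probe with 1 spot per array. From BP10 to BP40 the ratio was 0.91 for Psmb4 and 0.82 for Psmg4. It was 0.60 for Psmd1 and 0.59 for Psme2. It was 0.49 for Psmc1 and 0.37 for Psmb3. Against the control, Psmb4 gave -0.41 and 0.50 and Psmg4 -0.46 and 0.36 at BP10 and BP40. The probes of Psmb3, Psmc1 and Psme2 hold AATAAA. Psmb3 has no other probe, and in the other genes a second probe without it gave a smaller ratio, 0.24 for Psmc1 and 0.41 for Psme2.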

How the results depend on the processing

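No paired analysis was possible because a condition was measured on a single array. Over 368 recomputed values, 279 kept their direction and side of the threshold, or stayed within the tolerance, 65 moved, 19 calls were lost and 5 reversed. Some of the 279 could not have changed. The series value table holds the same intensities, and for a gene with 1 probe that lacks AATAAA, averaging probes or leaving out AATAAA probes returns the same value. The 279 are therefore no measure of robustness. Scaling moved the medians, since median scaling raised the median of all genes by 0.33 and 0.36 against the control at BP10 and BP40, quantile normalization by 0.21 and 0.12, and normexp by 0.15 and 0.18. The proteasome medians became 0.21 at BP10 and 0.50 at BP40 against the control with median scaling, and for BP40 against BP10 0.0735 with quantile normalization and 0.0357 with brightness correction. Spike-in scaling, also added after seeing the data, gave -0.65 for BP40 against control and -0.55 for BP40 against BP10. It reversed Psme3 at BP40 against control (-0.0919) and Psma5 (-0.14), Psmd1 (-0.19) and Psme2 (-0.20) at BP40 against BP10. The count called at BP10 against control, 2 genes, became 1 with quantile normalization, 1 with brightness correction, 1 without AATAAA probes (an alternative added after seeing the data), 6 with median scaling, 10 at a looser threshold (0.32 on the log2 scale) and 0 at 2-fold. The count at BP40 against control, 1 gene, became 13 with median scaling, 29 with spike-in scaling, 0 with normexp, 2 with every probe counted, 2 without the filter on dim probes, 8 at the looser threshold and 0 at 2-fold. The count at BP40 against BP10, 6 genes, became 3 with quantile normalization, 3 with scaling on always-detected probes, 3 with brightness correction, 18 with spike-in scaling, 18 at the looser threshold and 0 at 2-fold. Psme2 at BP40 against BP10 reversed to -0.50 when all probes with its name were averaged. The third of these probes, placed elsewhere in the genome, gave -2.49 and was not well above background on BP40. Beyond the construction of the alternatives, the cause was not tested.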
